A study of Neurospora crassa with 10 samples.

Results

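The transcripts of the cell wall synthases of *Neurospora crassa* were followed in mycelium that was moved from dark to light. The genes were chosen by locus: the 7 chitin synthase genes chs-1 (NCU03611), chs-2 (NCU05239), chs-3 (NCU04251), chs-4 (NCU09324), chs-5 (NCU04352), chs-6 (NCU05268) and chs-7 (NCU04350), and the beta-1,3-glucan synthase gene NCU06871, which is annotated as do with the synonym fks and is called fks here. These are 8 of the 9728 genes in the files. The study asked which transcripts respond to light in wild type (FGSC2489, 74-OR23-IVA, mat A), with no mutant or drug in any group. Liquid cultures in Bird's medium had 24 hr of darkness at 25° and were then harvested in the dark or after 15, 60, 120 or 240 min of white light (1200 lux). There were 2 biological replicates at each of the 5 time points, 10 samples in all, and RNA-seq levels were given as FPKM, fragment counts scaled to transcript length and to the size of the library. Replicate 1 was made with oligo(dT) cellulose and replicate 2 with poly(A) magnetic beads, and replicate 2 was sequenced less deeply, so culture, method and depth cannot be told apart.

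Chitin synthases are membrane enzymes that join N-acetylglucosamine from UDP-N-acetylglucosamine into chitin, the fibre of the septa and of the inner hyphal wall. They fall into classes: chs-3 encodes the class I enzyme, chs-2 class II, chs-1 class III, chs-4 class IV, chs-5 class V, chs-6 class VI and chs-7 class VII, and the class V and class VII enzymes carry a myosin-like domain beside the catalytic part. The Fks protein is the catalytic subunit of beta-1,3-glucan synthase, which makes the main glucan of the wall and is switched on by the GTPase Rho1. In growing hyphae tagged chitin synthases gather at the Spitzenkörper, the vesicle cluster of the tip, and at forming septa.

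Replicate 2 was below replicate 1 for all 8 synthase genes at every time point. Over all genes tested, those with a mean FPKM above 1 at 1 or more time points, 65.3% to 72.7% were lower in replicate 2. The replicates diverged most at 240 min, where 3451 of the 7688 genes tested differed at least 2-fold in FPKM + 1 between them, against 415 to 610 at the other time points. Values are therefore given for each replicate, and each change is given within the replicate before it is tested.

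In the dark the levels of the synthase genes, which FPKM puts on a scale per length, spanned from fks at the top to chs-6 at the bottom. The dark FPKM of fks was 224 in replicate 1 and 112 in replicate 2. It was 64.7 and 32.4 for chs-7, 47.5 and 40.0 for chs-1, and 57.6 and 19.9 for chs-5. The dark FPKM of chs-4 was 21.9 and 16.3, that of chs-3 15.3 and 6.81, that of chs-2 1.57 and 0.55, and that of chs-6 0.57 and 0.32. By the mean of the replicates the order was fks, chs-7, chs-1, chs-5, chs-4, chs-3, chs-2 and chs-6. The replicates' ranges overlapped between the neighbours chs-7 and chs-1, chs-1 and chs-5, chs-5 and chs-4, and chs-2 and chs-6, so that across replicates their order was not fixed beyond the spread. They did not overlap between fks and chs-7, chs-4 and chs-3, or chs-3 and chs-2. Within each replicate chs-5 was above chs-4, and chs-2 above chs-6. The gene chs-1 was below chs-7 and chs-5 in replicate 1 and above both in replicate 2. Over the 10 samples fks stood above 92.5% to 96.7% of all 9728 genes, and chs-6 above 13.3% to 21.9% of them.

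**Figure D1:**
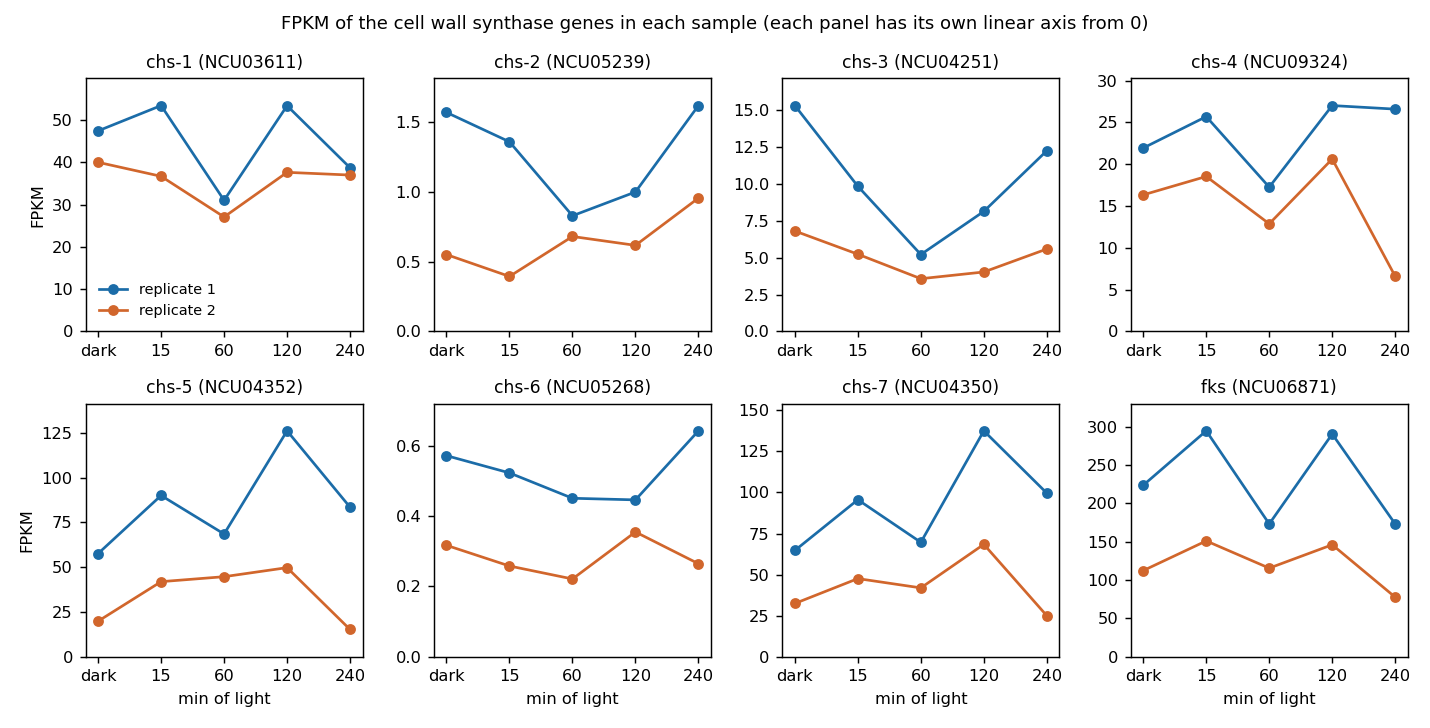
FPKM (y axis, linear from 0, a separate scale in each panel) of the 8 synthase genes against min of light (x axis, categories), with a line for each replicate and no error bars. Replicate 2 lies below replicate 1 throughout; chs-3, chs-1 and chs-4 have their lowest value among dark to 120 min at 60 min in both replicates, and chs-4, chs-5 and chs-7 have their highest at 120 min in both.

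The gene of the class I enzyme, chs-3, was lower after light. Its FPKM in replicate 1 was 15.3 in the dark and 9.84, 5.22, 8.14 and 12.3 after 15, 60, 120 and 240 min. In replicate 2 it was 6.81 in the dark and 5.24, 3.58, 4.03 and 5.59 in the light. Both replicates were lowest at 60 min, with no overlap with the dark, and every light sample was below the dark sample of its own replicate. At 60 min the level stood at 0.34 of the dark level in replicate 1 and at 0.53 in replicate 2. On the log2(FPKM + 1) scale the difference from the dark was −1.08 ± 0.54 (SE, n = 2 per time point) at 60 min and −0.73 ± 0.54 at 120 min. In limma fitted over all 7688 genes tested, with Benjamini-Hochberg adjustment over the 4 comparisons with the dark, the adjusted p was 0.495 at 60 min and 0.689 at 120 min, above the threshold of 0.2 that the study set for its q values. The same model with the replicate number as a block gave adjusted p of 0.029 at 60 min and 0.073 at 120 min, and chs-3 was then called lowered. At 15 min the difference was −0.46 ± 0.54 (adjusted p = 0.853, and 0.204 with the block); without dark replicate 1 it was 0.074.

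The class III gene chs-1 and the class IV gene chs-4 shared a dip at 60 min. The FPKM of chs-1 in replicate 1 was 47.5, 53.5, 31.0, 53.4 and 38.7 from the dark to 240 min. In replicate 2 it was 40.0, 36.7, 27.1, 37.7 and 37.0. Its 60 min samples were below all samples of the other 4 time points. The difference of 60 min from the dark was −0.57 ± 0.34 (adjusted p = 0.593, and 0.145 with the block). From 15 to 60 min it was −0.59 ± 0.34 (adjusted p = 0.764, and 0.180 with the block) and from 60 to 120 min 0.61 ± 0.34 (adjusted p = 0.754, and 0.171 with the block), with adjustment over the 3 steps between successive light time points. With the block, chs-1 was thus called lowered at 60 min and raised again at 120 min.

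For chs-4 the FPKM in replicate 1 was 21.9, 25.7, 17.3, 27.0 and 26.6 from the dark to 240 min, and in replicate 2 it was 16.3, 18.5, 12.9, 20.6 and 6.60. From the dark to 120 min the replicates kept the same order of time points, and they parted at 240 min. The 60 min values did not overlap with those at 15 min or at 120 min but did overlap with the dark. The difference was −0.52 ± 0.57 from 15 to 60 min and 0.63 ± 0.57 from 60 to 120 min, and chs-4 was not called at either step (adjusted p = 0.929 and 0.901, and 0.504 and 0.418 with the block). The 95% intervals of these differences without the block ran from −1.81 to 0.77 and from −0.66 to 1.92, and both held changes of more than 2-fold.

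The genes of the enzymes with the myosin-like domain, chs-5 and chs-7, were above the dark of the same replicate after 15, 60 and 120 min of light. The FPKM of chs-5 in replicate 1 was 57.6 in the dark and 90.0, 68.5, 126 and 83.5 after 15, 60, 120 and 240 min. In replicate 2 it was 19.9 in the dark and 41.9, 44.7, 49.7 and 15.2 in the light. Relative to the dark of the same replicate chs-5 stood at 2.19 and 2.50 at 120 min. The dark and 120 min values overlapped, since replicate 1 in the dark was above replicate 2 at 120 min. The difference at 120 min was 1.20 ± 0.86 (adjusted p = 0.679, and 0.126 with the block, which called it raised), and that at 15 min 0.84 ± 0.86 (adjusted p = 0.815, and 0.253 with the block).

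The FPKM of chs-7 in replicate 1 was 64.7 in the dark and 95.6, 69.6, 137 and 99.6 in the light. In replicate 2 it was 32.4 in the dark and 47.6, 41.9, 68.4 and 25.0 in the light. At 15 min chs-7 stood at 1.48 and 1.47 of the dark level of the same replicate, and at 120 min at 2.12 and 2.11. Both 120 min samples were above both dark samples. The difference was 1.06 ± 0.71 at 120 min (adjusted p = 0.648, and 0.097 with the block, which called it raised) and 0.55 ± 0.71 at 15 min (adjusted p = 0.875, and 0.339 with the block). From 60 to 120 min it was 0.83 ± 0.71 (adjusted p = 0.892, and 0.215 with the block). The SE of these differences was 0.71 without the block and 0.32 with it. The ratios to the dark were nearly equal in the replicates at 15 and 120 min only. They were 1.08 and 1.29 at 60 min, and 1.54 and 0.77 at 240 min.

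**Figure D2:**
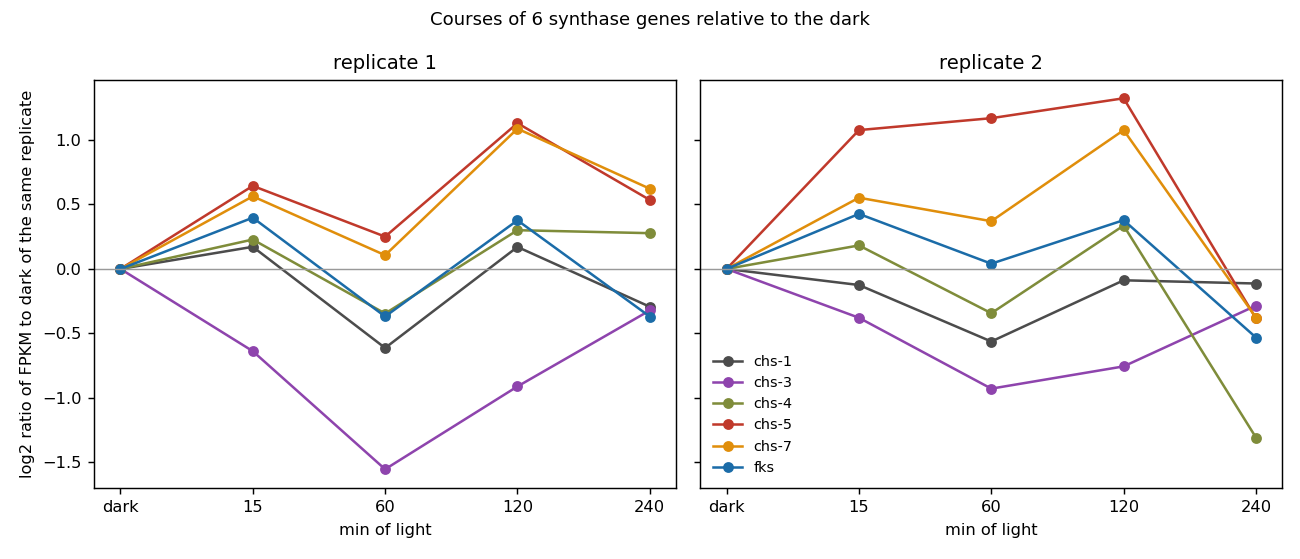
The log2 ratio of FPKM to its own replicate's dark sample (y axis) against min of light (x axis, categories), for 6 synthase genes, with replicate 1 on the left and replicate 2 on the right; each point is 1 sample. In both replicates chs-5 and chs-7 lie highest at 120 min and chs-3 lies lowest at 60 min. At 240 min all 6 genes end below the dark in replicate 2, while chs-4, chs-5 and chs-7 end above it in replicate 1.

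The glucan synthase gene fks had 2 maxima in each replicate. Its FPKM in replicate 1 was 224 in the dark and 294, 173, 290 and 173 after 15, 60, 120 and 240 min. In replicate 2 it was 112 in the dark and 151, 116, 146 and 77.7 in the light. The values at 15 and 120 min were the highest in both replicates, and the dark and light values overlapped at every light time point. The difference from the dark was 0.41 ± 0.59 at 15 min (adjusted p = 0.895, and 0.302 with the block) and 0.38 ± 0.59 at 120 min (adjusted p = 0.908, and 0.344 with the block). Without dark replicate 2 these differences were −0.084 and −0.12, without 15 min replicate 1 that at 15 min was −0.07, and without 120 min replicate 1 that at 120 min was −0.12. From 15 to 60 min the difference was −0.57 ± 0.59 (adjusted p = 0.924, and 0.217 with the block). The step from 120 to 240 min was −0.82 ± 0.59 (adjusted p = 0.844), and the block called it lowered (adjusted p = 0.123).

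The other genes, chs-2 and chs-6, had low levels throughout. The FPKM of the class II gene chs-2 in replicate 1 was 1.57, 1.36, 0.83, 1.00 and 1.62 from the dark to 240 min, and in replicate 2 it was 0.55, 0.39, 0.68, 0.62 and 0.95. The replicates went opposite ways from the dark to 60 min, and the difference there was −0.19 ± 0.36 (adjusted p = 0.930, and 0.639 with the block); without dark replicate 1 it was 0.18. The class VI gene chs-6 ranged from 0.22 to 0.64 FPKM over the 10 samples. It did not pass the minimum of 1 and was not tested. The files hold no read counts, so the depth behind these low values is not known from them.

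Without the block, 0 of the 7 synthase genes tested were called by limma against the dark, and 0 had an unadjusted p below 0.05 (the lowest was 0.077, for chs-3 at 60 min), against 27.6% of all genes. Of all genes tested 8.87% were called against the dark, and for 15, 60, 120 and 240 min separately these were 1.78%, 6.23%, 4.96% and 1.38%, so that at the rate of the whole set less than 1 call at the adjusted threshold was due among 7 genes in any comparison. Over the 3 steps, 0 synthase genes and 0% of all genes were called, and at an unadjusted p below 0.05 there were 0 synthase genes and 1455 genes in all (18.9%). With the block 4 of the 7 were called against the dark at 1 or more time points (chs-1, chs-3, chs-5 and chs-7), against 52.8% of all genes. At 60 min 2 were lowered (chs-1 and chs-3) and 0 raised, against 22.1% and 14.4% of all genes. At 120 min 1 was lowered (chs-3) and 2 raised (chs-5 and chs-7), against 19.5% and 11.6%. Over the steps 5 of the 7 were called (chs-1, chs-3, chs-5, chs-7 and fks), against 35% of all genes. Without the 240 min samples and with the block 6 of the 7, all but chs-2, were called against the dark and 6 over the steps, but so were 93.1% and 82.5% of all genes. Without the 240 min samples and without the block, 0 of the 7 were called in either set, against 45.1% of all genes for the dark and 16.9% for the steps. The comparisons with the dark share the dark samples and are not independent of each other.

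The directions within replicates are given as a description, with no test. At 15 and at 120 min 4 of the 7 genes (chs-4, chs-5, chs-7 and fks) were above the dark in both replicates, against 35.1% and 39.3% of all genes tested. At both times chs-3 was below the dark in both replicates, and at 15 min so was chs-2. At 60 min 3 genes (chs-1, chs-3 and chs-4) were below the dark in both, against 47.5% of all genes. At that time chs-5 and chs-7 were above the dark in both replicates. From 60 to 120 min 6 genes, all but chs-2, were higher in both replicates, against 40.9% of all genes, and from 120 to 240 min 5 genes (chs-1, chs-4, chs-5, chs-7 and fks) were lower in both, against 30% of all genes. Both 60 min values lay below both dark values for 2 genes (chs-1 and chs-3), against 31.7% of all genes, and both 120 min values lay above both dark values for 1 (chs-7), against 22.7%. The 60 min values were clear of and below those at 15 min for 3 genes (chs-1, chs-3 and chs-4), against 24.2% of all genes, and the 120 min values were clear of and above those at 60 min for 2 (chs-1 and chs-4), against 14.3%. The lowest of the dark, 15, 60 and 120 min values fell at 60 min in both replicates for 3 genes, against 23% of all genes, and the highest fell at 120 min in both for 3 genes, against 13.6%.

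The make-up of the chitin synthase transcripts moved toward chs-5 and chs-7 in the light up to 120 min. The summed FPKM of the 7 chs genes was 209, 276, 193, 354 and 263 from the dark to 240 min in replicate 1 and 116, 151, 131, 181 and 90.6 in replicate 2. The share of chs-5 plus chs-7 in that sum was 58.5% in the dark and 67.1%, 71.6%, 74.5% and 69.6% in the light in replicate 1. In replicate 2 it was 45.0% in the dark and 59.4%, 66.1%, 65.1% and 44.4% in the light. All light samples to 120 min were above both dark samples, and the replicates parted at 240 min, where replicate 2 was near its dark value. The share of chs-1 went the other way, from 22.7% and 34.4% in the dark to 15.1% and 20.8% at 120 min. Shares of a sum cannot all rise, and the FPKM of chs-1 was 47.5 and 40.0 in the dark and 53.4 and 37.7 at 120 min. The share of chs-3 went from 7.3% and 5.9% in the dark to 2.3% and 2.2% at 120 min. No test was run on the shares.

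**Figure D3:**
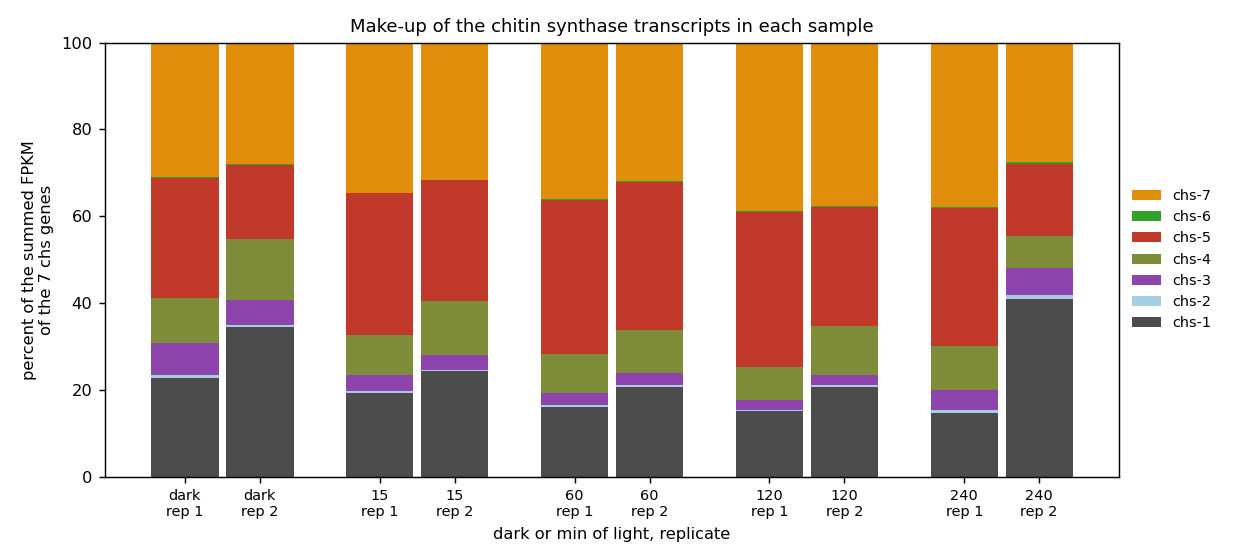
Percent of the summed FPKM of the 7 chs genes (y axis, from 0 to 100) in each of the 10 samples (x axis: dark or min of light, and replicate), with a stacked bar segment for each gene. The segments of chs-5 and chs-7 together make 58.5% and 45.0% of the bar in the dark and 74.5% and 65.1% at 120 min.

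At 240 min the replicates gave different pictures for the same genes. Relative to 120 min, chs-5 was at 83.5 after 126 FPKM in replicate 1 and at 15.2 after 49.7 FPKM in replicate 2. For chs-5 the step was −1.12 ± 0.86 (adjusted p = 0.864, and 0.196 with the block), and for chs-7 it was −0.94 ± 0.71 (adjusted p = 0.859, and 0.175 with the block). Without 240 min replicate 2 the steps were 0.073 and 0.037. Without 240 min replicate 1 they were −2.31 and −1.92 (adjusted p = 0.143 and 0.132), with the remaining sample assumed to vary as the other time points did. The gene chs-4 stood at −0.46 ± 0.57 against the dark and at −0.77 ± 0.57 against 120 min (adjusted p = 0.863 and 0.852, and 0.520 and 0.329 with the block). It was called lowered without 240 min replicate 1, by 1.39 against the dark and by 1.70 against 120 min on the log2 scale (adjusted p = 0.048 and 0.028); 27.6% and 27.2% of all genes were called lowered in those comparisons without that sample. Without 240 min replicate 2 the differences of chs-4 were 0.47 and 0.16. The only gene whose 240 min values lay clear of the dark was chs-1, at 38.7 and 37.0 against 47.5 and 40.0 FPKM, against 17.5% of all genes with both 240 min values below both dark values.

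In the order of the RefSeq annotation (assembly NC12), chs-5 and chs-7 lie with 1 gene, NCU04351, between them. Their FPKM kept a ratio of chs-5 to chs-7 between 0.84 and 0.98 over the samples of replicate 1 and between 0.61 and 1.07 over those of replicate 2. The FPKM of NCU04351 was 1.94, 4.89, 8.85, 6.59 and 3.31 from the dark to 240 min in replicate 1 and 11.6, 21.2, 37.3, 32.1 and 19.0 in replicate 2. It was thus higher in replicate 2 at every time point, where its neighbours were lower, and its maximum was at 60 min in both replicates. With the replicate means removed, over the samples from the dark to 120 min, its log2(FPKM + 1) correlated at 0.71 with chs-5 and at 0.51 with chs-7. Its difference at 60 min from the dark was 1.67 ± 1.15 (adjusted p = 0.662, and 0.009 with the block, which called it raised). NCU04351 was singled out for its position.

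To describe which patterns were alike, the correlation of log2(FPKM + 1) was taken over the 8 samples from the dark to 120 min after the mean of each replicate was removed. The 8 points share 2 replicates and 4 time points, and with so few points many genes reach a high value. Among the synthase genes r was 0.90 between chs-5 and chs-7, 0.89 between chs-4 and fks and 0.88 between chs-1 and chs-4, while it was −0.50 between chs-3 and chs-5. Over the other 7687 genes tested, r was above 0.9 for 738 genes with chs-3, 140 with chs-1, 84 with chs-4, 82 with chs-5, 82 with chs-7, 52 with fks and 2 with chs-2. The genes closest to chs-3 were NCU04472, a DEAD/DEAH box helicase (r = 0.997), and NCU12064 (0.995). Those closest to chs-1 were NCU08023 (0.992) and NCU06202, the kinase gene stk-38 (0.983). For chs-4 they were NCU05996, a C6 finger protein (0.997), and NCU03298 (0.995). For chs-5 they were NCU09915, fsd-1 (0.989), and NCU01478, which encodes a fungal transcription factor domain (0.979). For chs-7 they were NCU02114, a G1/S-specific cyclin gene (0.986), and NCU02750 (0.978). For fks they were NCU02295, mss4 (0.979), and NCU07544 (0.978), and for chs-2 NCU10761 (0.947) and NCU00386 (0.935).

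In the fits of all 10 samples, genes that make the precursor of chitin were not called against the dark at any time point, with or without the block. Of all genes 52.8% were called against the dark with the block and 8.87% without it. The 4 genes of this list encode the hexosamine pathway from fructose 6-phosphate to UDP-N-acetylglucosamine. The gene of its entry step, glutamine-fructose-6-phosphate aminotransferase (NCU07366, gfa1), had 195, 185, 117, 191 and 209 FPKM in replicate 1 and 188, 152, 90.9, 164 and 72.4 in replicate 2. It was lowest at 60 min among dark to 120 min in both replicates, as chs-1, chs-3 and chs-4 were. The difference at 60 min was −0.89 ± 0.48 (adjusted p = 0.544, and 0.204 with the block). For the mutase gene NCU07458 it was −0.99 ± 0.48 (adjusted p = 0.487, and 0.247 with the block). For the acetyltransferase gene NCU01902 it was 0.44 ± 0.56 (adjusted p = 0.868) and for the pyrophosphorylase gene NCU02109 0.17 ± 0.40 (adjusted p = 0.945), and after quantile normalization these were −0.078 and −0.32. The FPKM of NCU07458 was 53.3, 56.5, 27.5, 27.4 and 27.2 from the dark to 240 min in replicate 1. In replicate 2 it was 49.9, 44.9, 23.7, 26.1 and 82.2. Both 60 min and both 120 min values lay below both dark values, and the replicates parted at 240 min.

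Of the accessory proteins and of the other glucan synthases, 3 of 4 genes were called lowered at 60 min with the block, against 22.1% of all genes, and 0 without it. NCU02592, annotated as a chitin synthase activator, had 10.6, 9.35, 3.76, 6.68 and 9.17 FPKM in replicate 1 and 6.23, 5.25, 2.19, 4.48 and 6.08 in replicate 2. Its 60 min values were below all samples of the other time points, and the ratio to the dark was nearly the same in both replicates. Its difference at 60 min was −1.23 ± 0.42 (adjusted p = 0.277, and 0.013 with the block). NCU07435, annotated as a chitin biosynthesis protein of the CHS5 kind, stood at −0.04 ± 0.63 (adjusted p = 0.998), and at 0.085 after median scaling. In yeast the Chs5 protein carries a chitin synthase to the cell surface.

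Both genes annotated as alpha-1,3-glucan synthases, which make another wall glucan, were lower at 60 min. NCU02478 had 26.5, 23.6, 9.76, 20.8 and 30.5 FPKM in replicate 1 and 12.1, 11.7, 4.52, 9.04 and 6.30 in replicate 2, and its difference at 60 min was −1.30 ± 0.77 (adjusted p = 0.585, and 0.057 with the block). NCU08132 had 44.5, 42.9, 23.2, 42.0 and 28.9 FPKM in replicate 1 and 17.2, 16.9, 10.5, 17.8 and 18.3 in replicate 2, and its difference was −0.78 ± 0.67 (adjusted p = 0.754, and 0.089 with the block). In both replicates the values of both genes were lowest at 60 min.

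Of the list of Rho1, protein kinase C and the cell wall integrity kinases, which act upstream of glucan synthase and wall repair, 0 of 6 genes were called against the dark without the block, against 8.87% of all genes. With the block 3 of 6 were called lowered at 60 min, against 22.1% of all genes; these were the 3 kinases of the MAP kinase cascade, named here after their values were seen. The difference was −0.90 ± 0.51 for mik-1 (NCU02234; adjusted p = 0.560, and 0.023 with the block). It was −0.93 ± 0.35 for mek-1 (NCU06419; adjusted p = 0.318, and 0.032 with the block) and −1.10 ± 0.36 for mak-1 (NCU09842; adjusted p = 0.267, and 0.024 with the block). NCU02592, mek-1 and mak-1 were also called lowered without the block after median scaling, after quantile normalization or without the 240 min samples. The FPKM of mak-1 was 58.5 and 46.5 in the dark and 27.2 and 21.0 at 60 min.

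In the fit of all 10 samples without the block, 3 genes of wall remodelling and breakdown were the only list genes called against the dark, and all 3 were raised. Over all 40 genes of the pathway lists, 29 were tested, and at 60 min 3 were raised and 0 lowered, against 2.68% and 3.55% of all genes tested. The median difference of the 29 genes at 60 min was −0.04, beside −0.09 over all genes tested. NCU10852, annotated as an exochitinase, had 22.0, 70.7, 108, 94.2 and 42.4 FPKM in replicate 1 and 31.0, 88.8, 125, 118 and 30.8 in replicate 2. It was raised by 1.57 ± 0.35 at 15 min (adjusted p = 0.126), 2.11 ± 0.35 at 60 min (0.064) and 1.97 ± 0.35 at 120 min (0.070), with no overlap with the dark. NCU07253, annotated as the 1,3-beta-glucanosyltransferase gh72-4 or gel-4, which lengthens glucan chains, had 256, 276, 662, 765 and 489 FPKM in replicate 1 and 210, 248, 637, 731 and 331 in replicate 2. It was raised by 1.48 ± 0.34 at 60 min (adjusted p = 0.128) and by 1.68 ± 0.34 at 120 min (0.094).

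NCU01080, annotated as the glucanase gh64-1, had 38.5 FPKM in the dark and 197 at 60 min in replicate 1, and 52.8 and 261 in replicate 2, and was raised at 60 min by 2.30 ± 0.64 (adjusted p = 0.186). These 3 were 1 of the 6 genes tested for chitinases and chitin deacetylase, 1 of 7 for glucan remodelling and 1 of 2 for beta-1,3-glucanases. Each of the 3 calls at 60 min was lost when either dark or either 60 min sample was left out, with differences then between 1.34 and 2.53, and those of NCU01080 and NCU07253 were lost also without any 1 sample at 15 or 120 min. The calls at 15 and 120 min were lost without either sample of the dark or of the time point itself. Quantile normalization moved NCU07253 at 60 min to 0.77 and NCU01080 to 1.85 and ended both calls. With the block 5 of the 29 were raised and 7 lowered at 60 min, against 14.4% and 22.1% of all genes. Beside the genes above, these were gh16-1 (NCU01353), a mixed-linked glucanase gene, and the chitinase genes gh18-5 (NCU04554) and gh18-7 (NCU06020), named after their values were seen. Their differences at 60 min were −0.76 ± 0.31 for gh16-1 (adjusted p = 0.374, and 0.090 with the block), 1.30 ± 1.06 for gh18-5 (adjusted p = 0.735, and 0.193 with the block) and 1.82 ± 0.56 for gh18-7 (adjusted p = 0.233, and 0.113 with the block).

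**Figure D4:**
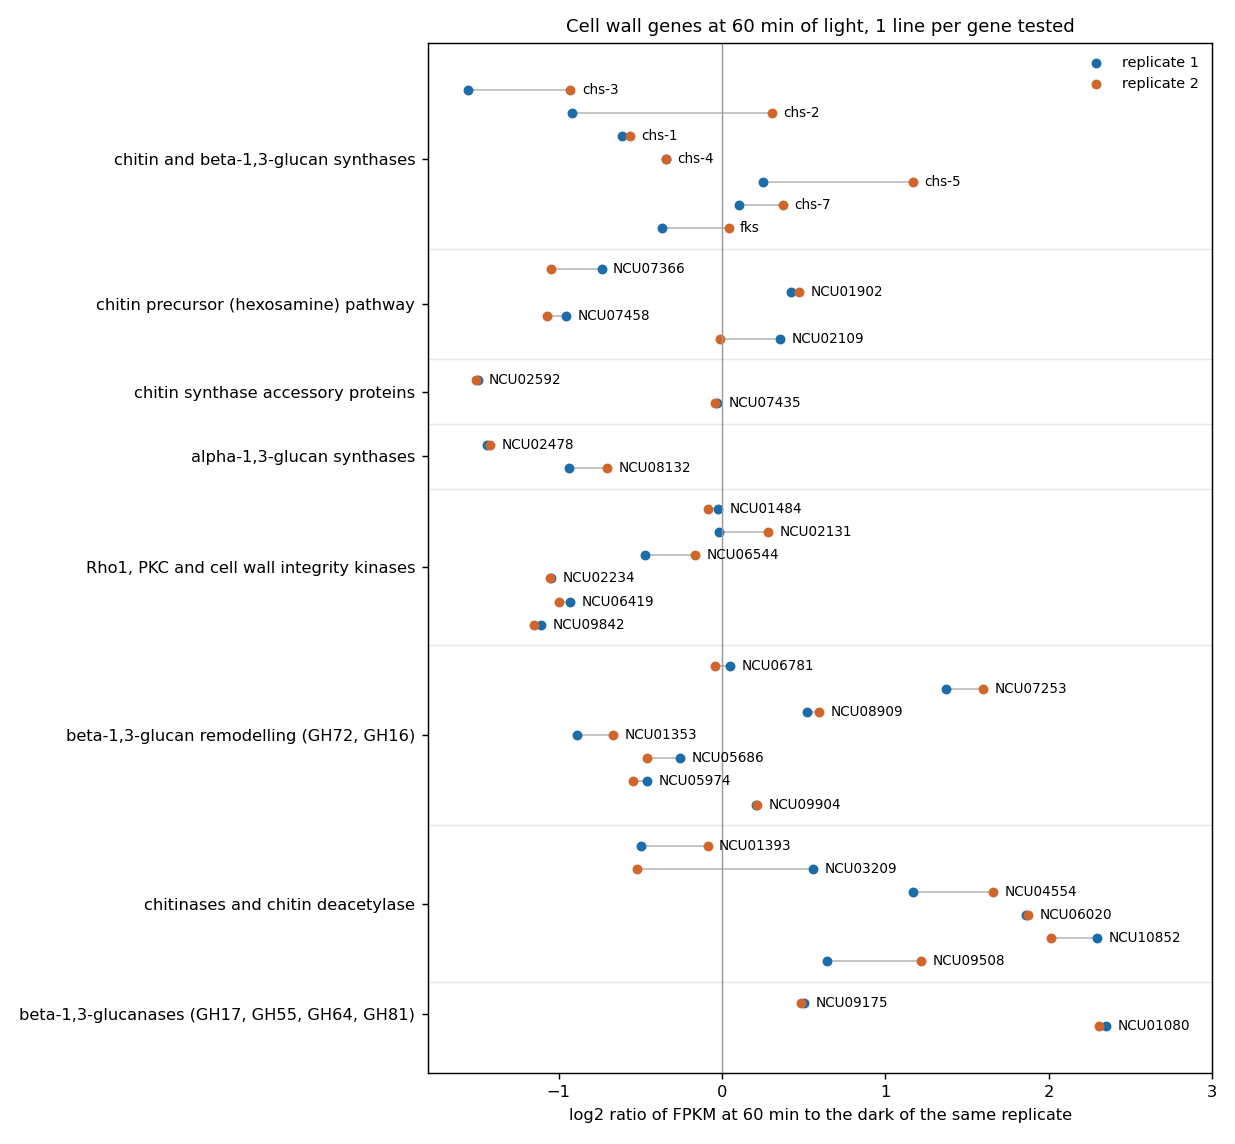
The log2 ratio of FPKM at 60 min to its own replicate's dark sample (x axis) for the 7 synthase genes tested and the 29 list genes tested, grouped by list (y axis); each line is 1 gene and its points are the replicates. Both replicates of chs-3, chs-1 and chs-4, of NCU02592, of both alpha-1,3-glucan synthases and of the 3 MAP kinase cascade genes lie left of 0, and both replicates of chs-5, chs-7, NCU10852, NCU07253 and NCU01080 lie right of it.

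Genes used here as markers of conidiation, the formation of asexual spores, moved over the same time points. They are not markers of that cell type alone, since the paper groups con-6, con-10 and fl with genes induced by light. All 4 markers, con-6 (NCU08769), con-10 (NCU07325), eas (NCU08457) and fl (NCU08726), were raised at 15 min without the block, against 1.34% of all genes. For 60, 120 and 240 min these were 3, 3 and 0 markers, against 2.68%, 1.37% and 0.325% of all genes, and no marker was at 0 in any sample. With the block 4 markers were raised at 60 and at 120 min, against 14.4% and 11.6% of all genes. At 240 min the block called 2 raised (con-6 and con-10), against 393 of all 7688 genes tested. The summed FPKM of the 4 markers from the dark to 240 min was 88.0, 717, 3927, 2497 and 192 in replicate 1 and 54.8, 980, 4393, 1657 and 95.8 in replicate 2. The highest sum was at 60 min, and con-6 alone gave 3408 and 3456 FPKM of it in replicates 1 and 2. By the mean of the replicates con-6, con-10 and eas were highest at 60 min. The mean of fl was highest at 15 min, at 10.2 FPKM, and was 3.10 at 60 min. At 60 min chs-1, chs-3 and chs-4 had the lowest of their dark to 120 min values in both replicates, as had 23% of all genes tested. The genes chs-5 and chs-7 were above the dark in both replicates at 60 min. At 240 min chs-4 was lower still in replicate 2, but in replicate 1 it was at 26.6 FPKM, above its dark value of 21.9. The part of conidiating cells in the synthase levels was not tested, and in these bulk samples fewer cells of a type and less transcript per cell cannot be told apart. Nor can a light response of the markers within mycelium be told from a rise of conidiating cells.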

How the data were processed

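Capped poly(A) RNA was sequenced on a HiSeq instrument after random hexamer priming. Per the study's methods and the submitters' processing notes, the authors called bases with CASAVA 1.8.2, mapped reads with TopHat2 2.0.5 and computed the deposited FPKM values with Cuffdiff of Cufflinks, with correction for sequence bias and for multiply mapped reads. The files give FPKM for 9728 genes in each of 10 samples and no read counts, so depth is not known from them, and 721 to 915 genes were listed at 0 in a sample. No sample pair held identical values.

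From these values, 7688 genes with a mean FPKM above 1 at 1 or more time points were tested with limma 3.58.1 (R 4.3.3) on log2(FPKM + 1), with a mean for each time point and a variance trend. Fold changes on this scale understate changes of low genes. All 10 samples entered the fit, and p-values were adjusted (Benjamini-Hochberg) over the 4 comparisons with the dark, or over the 3 steps between light time points, and called at 0.2. The fit was tested on simulated data. Errors are SEs of the fit. Groups came from the labels, with 2 biological replicates each.

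The replicate numbers paired the samples: once the mean of each time point was removed, same-numbered samples correlated at 0.76 to 0.84 among the dark, 15, 60 and 120 min, and at 0.33 to 0.41 with those of 240 min. The fit with the replicate number as a block is therefore given beside the fit without it. Alternatives were the block, leaving out the 240 min samples or each sample, pseudocount 0.1, no filter, a filter of 5, quantile normalization, median scaling and no variance trend.

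The members and gene lists were chosen with earlier results of these data known. Named were all 8 synthase genes, the 2 genes with the highest correlation to each, all genes of the lists for precursor, accessory and alpha-1,3-glucan synthase genes, and, of other lists, those called without the block. Outside this rule, the list genes called at 60 min only with the block, and NCU04351 for its position, were named after their values were seen. All 52 locus IDs looked up matched RefSeq; its build differs from that of the files, so it was used for names and for the order of neighbouring genes, and no coordinate or sequence of it is given.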

Additional observations from a re-analysis of the deposited data

How the results depend on the processing

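Without the block and over all genes, 682 of 7688 were called against the dark and 0 over the steps. With the replicate block these counts were 4062 and 2687, without the 240 min samples 3469 and 1302, and without the 240 min samples and with the replicate block 7159 and 6341. Median scaling gave 1323 and 52, and over the steps quantile normalization and no filter gave 4 each. Leaving out each sample gave 10 to 4715 calls against the dark and 0 to 4027 over the steps. Of the 7 synthase genes tested, 0 were called in either set; the replicate block called 4 and 5, and the block without the 240 min samples 6 and 6, while leaving out each sample gave 0 to 1 and 0 to 3. All calls in these leave-outs came from leaving out 240 min replicate 1.

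Leaving out each sample moved 10 differences across 0: chs-3 at 15 min from −0.99 to 0.074, chs-2 at 60 min from −0.55 to 0.18, fks at 15 min from −0.084 to 0.90 and at 120 min from −0.12 to 0.87. From 120 to 240 min chs-4 ran from −1.70 to 0.16, chs-5 from −2.31 to 0.073 and chs-7 from −1.92 to 0.037, and chs-4 at 240 min against the dark from −1.39 to 0.47. NCU02109 at 60 min ran from −0.18 to 0.53 and NCU07435 from −0.32 to 0.25. Quantile normalization gave −0.078 for NCU01902 and −0.32 for NCU02109, and median scaling 0.085 for NCU07435. Median scaling moved the median of all genes at 240 min from −0.14 to −0.01. With 2 replicates and no read counts, the precision of low genes such as chs-2 and chs-6 could not be judged from counting. The cause of these changes was not tested.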
